A study of Rattus norvegicus with 80 samples.

Results

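Mammary epithelial cells (MECs) of IFPS rats were compared with MECs of wildtype rats, 3 libraries against 3. These 6 libraries are all the IFPS and wildtype MEC libraries among the 80 samples of the series, and were taken by their labels alone. The series covers wildtype rats and 3 rat lines with a mutated Nf1 gene, which the labels call IF, PS and IFPS without spelling the names out, and it holds MECs, fibroblasts, adipocytes, whole mammary pads and tumors. The wildtype group carries the label wildtype with no strain, the IFPS group carries the label IFPS with no allele description, and no age, treatment or time is given for either. The MECs were described as sorted by flow cytometry, were grown in culture, and were lysed for RNA when the wells were nearly full, so cultured cells and not cells of the intact gland were measured. Whether the 3 libraries of a line came from separate rats is not stated, and the p-values below measure only the spread between these libraries.

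Nf1 encodes neurofibromin, a protein that switches Ras off by speeding the hydrolysis of its bound GTP. When neurofibromin is lost, Ras stays active for longer and drives the RAF, MEK and ERK kinases. MECs line the ducts and alveoli of the mammary gland in an inner luminal and an outer basal, contractile layer, and most mammary carcinomas arise from them. Comparing the MECs of a mutated line with wildtype MECs asks whether epithelial cells of that line, grown in culture, differed in gene expression.

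The table gives gene identifiers of the Ensembl rat annotation and no gene names, and 0 of the 32883 identifiers could be paired with a symbol of the 47357 rat genes in the reference table. The level of Nf1, the luminal and basal markers, the targets of ERK and the other pathway lists were therefore not analysed here, and genes are given as counts or, for 4 of them, by identifier. The depth of the groups differed. Wildtype MEC libraries held 29673772 to 31632249 counts and IFPS MEC libraries 21277106 to 24372654, so that line and depth cannot be told apart by grouping. Between 18312 and 18583 genes had a count in each of the 6 libraries. The Spearman correlation over genes was 0.994 to 0.996 between IFPS libraries, 0.991 to 0.993 between wildtype libraries and 0.990 to 0.994 across the groups.

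The cell type label was examined with gene sets built from other libraries, a choice made after the data were seen. A gene was called enriched in MECs when its mean log2(CPM + 1) in IF and PS MECs was at least 8-fold above that in all fibroblasts and all adipocytes, and the fibroblast and adipocyte sets were built in the same way (CPM, the usual count scaled to the size of the library). All 250 MEC-enriched genes had counts in each of the 6 libraries. They took 2.70 to 3.67% of the counts in wildtype MECs and 2.77 to 3.36% in IFPS MECs. Their share was 0.0552 to 0.0821% in wildtype fibroblasts and 0.0642 to 0.104% in wildtype adipocytes. Fibroblasts and adipocytes helped to define this set by low values, so that contrast was largely set in advance. Wildtype pads, which had no part in the definition, were at 0.435 to 1.71%. All 72 fibroblast-enriched genes had counts in the MECs too, and took 1.46 to 1.51% in wildtype and 1.02 to 1.45% in IFPS MECs, against 8.11 to 9.83% in wildtype fibroblasts, which helped to define the set. The IFPS libraries were below every wildtype library in the fibroblast-enriched share, the highest of them narrowly. The IF libraries at 1.05 to 1.13% and the PS libraries at 0.964 to 1.21% were below wildtype too. IF and PS MECs helped to define the set by low values, so their position is partly set by that choice. The adipocyte-enriched set of 383 genes took 0.494 to 0.696% in wildtype and 0.631 to 0.702% in IFPS MECs. In bulk samples fewer cells of a type and less RNA per cell cannot be told apart.

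Few genes passed the threshold between IFPS and wildtype MECs, and most of those differed by less than 2-fold. Of 14688 genes tested, 55 passed an adjusted p-value of 0.05 by edgeR's quasi-likelihood test, which is 0.374% of the genes. Of these, 40 were higher in IFPS (0.272%) and 15 were lower (0.102%). The median log2 fold change was 0.71 among the higher genes and -0.54 among the lower genes, beside a median of -0.01 over all genes tested. Only 19 of the 55 genes differed by more than 2-fold. The changed genes were not restricted to rare transcripts. Their mean level over the 6 libraries ran from 0.301 to 1890 CPM with a median of 32.6 CPM, against a median of 21.7 CPM over all genes tested.

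**Figure D1:**
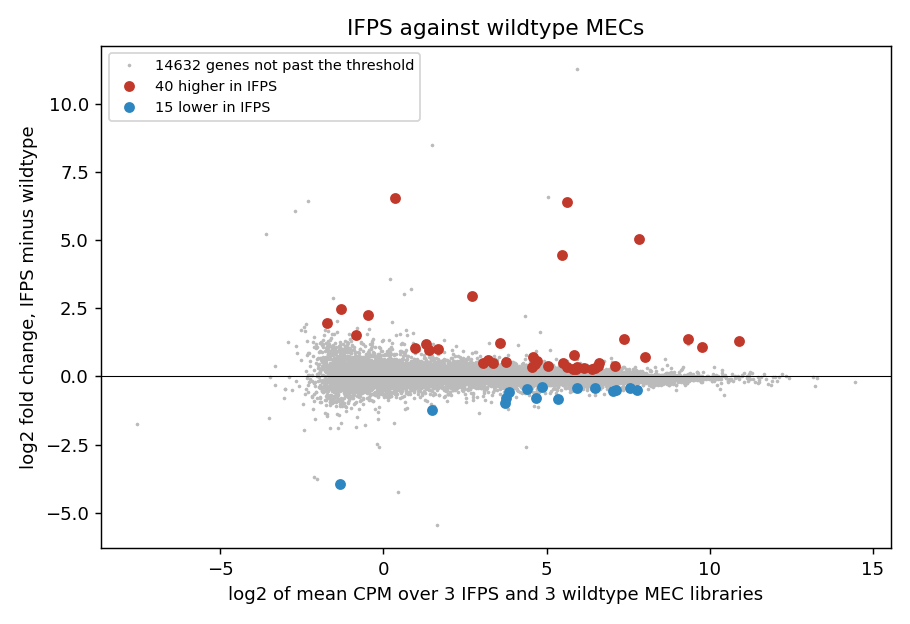
Each point is a gene, with the log2 of its mean CPM over the 3 IFPS and 3 wildtype MEC libraries on the x axis and its log2 fold change (IFPS minus wildtype) on the y axis. The 40 higher (red) and 15 lower (blue) genes past the threshold have mean levels from 0.301 to 1890 CPM, some grey points with large fold changes did not pass it, and 1 tested gene with no count in the 6 libraries is not drawn.

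For all 55 genes the IFPS and wildtype libraries did not overlap. That also held for 15.6% of all genes tested, 8.01% with IFPS higher and 7.58% with IFPS lower, and the calls and this count come from the same libraries. The evidence sat close to the threshold. Of the 55 genes, 1 had an adjusted p-value under 0.01 and 7 had one under 0.03, while a limit of 0.1 would have given 113 genes. The unadjusted p-value was under 0.05 for 1588 genes (10.8%), 863 of them higher in IFPS (5.88%) and 725 lower (4.94%).

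The number of genes past the threshold depended on every one of the 6 libraries. It was 2 without wildtype replicate 1, 25 without wildtype replicate 2 and 3 without wildtype replicate 3. It was 1 without IFPS replicate 1, 1 without IFPS replicate 2 and 4 without IFPS replicate 3. Of the 55 genes, 34 passed in none of these 6 fits, 17 in 1 fit, 3 in 2 fits and 1 in all 6. All 55 kept their direction and an unadjusted p-value under 0.05 in each of the 6 fits, the largest being 0.00127. This was largely set in advance, since the groups did not overlap in these genes and the same libraries chose them. The count also changed with the lines held in the fit and with the method. The fit of only IFPS and wildtype MECs gave 10 genes, 9 of them among the 55, and the fit without IF MECs gave 0 genes (1421 at an unadjusted p under 0.05). DESeq2 gave 203 genes, 127 of them higher, and 54 of the 55 were among them. After all MEC libraries were thinned to the total of the shallowest, 32 genes passed, all of them among the 55, and 59.4% of these were higher in place of 72.7%.

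**Figure D2:**
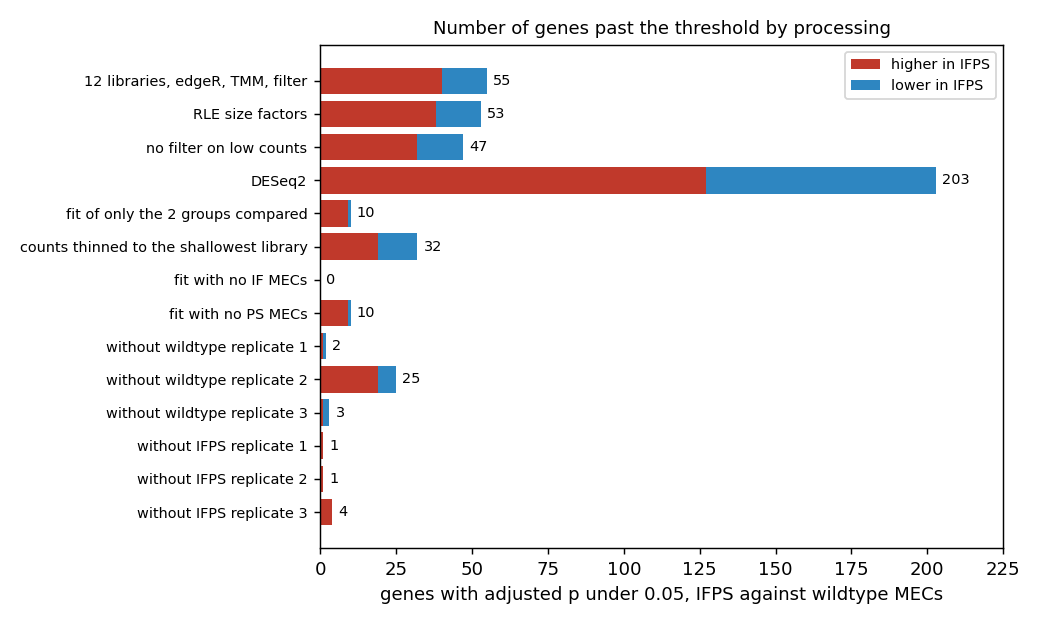
Bars give the number of genes with an adjusted p-value under 0.05 between IFPS and wildtype MECs, split into higher (red) and lower (blue), for the fit of 12 MEC libraries (55 genes) and for each alternative. Leaving out any of the 6 libraries gave 25 genes or fewer.

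The 2 higher and the 2 lower genes with the smallest p-values were examined library by library. ENSRNOG00000061254 had 1.43, 1.12 and 0.933 CPM in wildtype replicates 1, 2 and 3, from 29 to 42 counts per library. In IFPS replicates 1, 2 and 3 it had 92.6, 85.9 and 113 CPM, from 1905 to 2741 counts. Wildtype MECs were low without exception and IFPS MECs were high without exception. The log2 fold change was 6.39 ± 0.64 (SE), adjusted p = 0.00722 by edgeR. This was the 1 gene of the 55 that passed in all 6 fits with a library left out, and it missed the threshold in the fit without IF MECs (adjusted p = 0.0589, edgeR).

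ENSRNOG00000001613 had 37.1, 38.7 and 37.2 CPM in wildtype replicates 1, 2 and 3. The IFPS replicates had 54.1, 54.2 and 48.9 CPM. The wildtype libraries lay within 2 CPM of each other and every IFPS library was higher. The log2 fold change was 0.48 ± 0.06 (SE), adjusted p = 0.019 by edgeR. The call was kept in 2 of the 6 fits with a library left out, namely without wildtype replicate 2 and without IFPS replicate 3.

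ENSRNOG00000013780 was the lower gene with the smallest p-value. It had 160, 160 and 146 CPM in wildtype replicates 1, 2 and 3, and 113, 102 and 105 CPM in IFPS replicates 1, 2 and 3. The groups did not overlap, and the lowest wildtype library stood well above the highest IFPS library. The log2 fold change was -0.54 ± 0.07 (SE), adjusted p = 0.019 by edgeR, and the call was kept in 2 of 6 fits with a library left out (without wildtype replicate 2 and without wildtype replicate 3).

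ENSRNOG00000004639 had 31.8, 34.0 and 32.7 CPM in the wildtype replicates and 24.8, 24.3 and 25.5 CPM in the IFPS replicates, again without overlap. The log2 fold change was -0.40 ± 0.06 (SE), adjusted p = 0.0313 by edgeR. This call was lost whenever any 1 of the 6 libraries was left out, at adjusted p-values of 0.0647 (without wildtype replicate 2) to 0.115 (without IFPS replicate 2) in those edgeR fits.

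**Figure D3:**
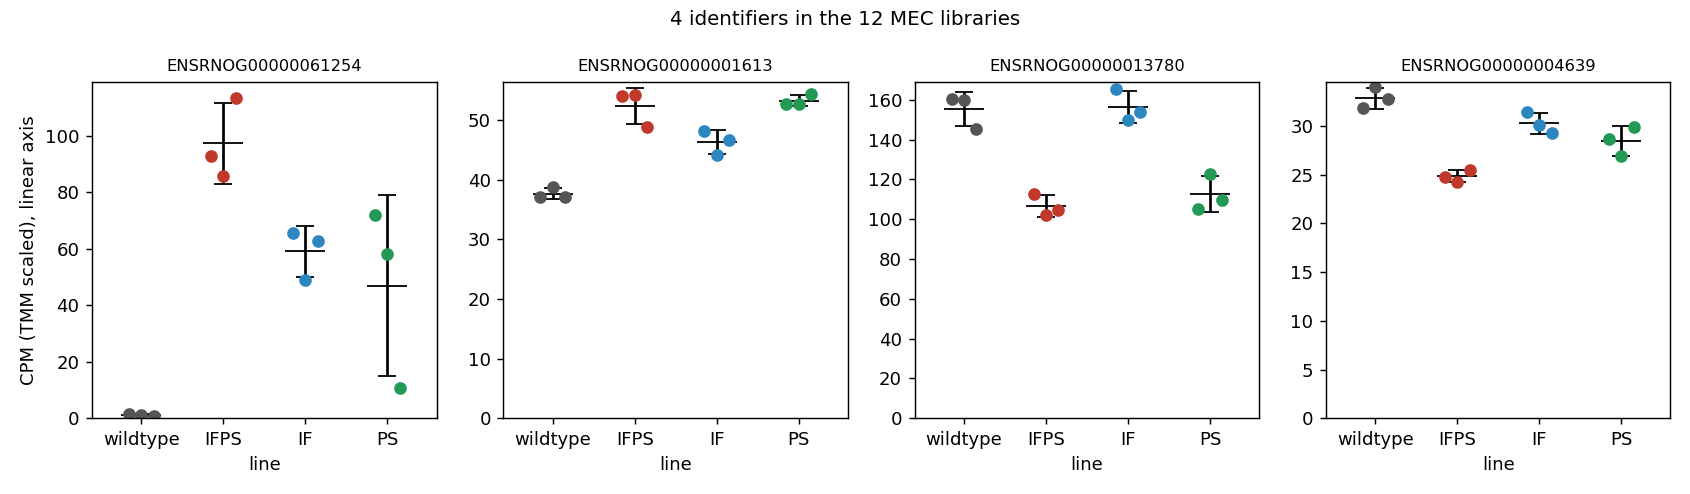
Points are the CPM of each MEC library (linear axis from 0) for the 2 higher and 2 lower genes with the smallest p-values, by line, and bars are the mean and SD of 3 libraries. Red IFPS points do not overlap grey wildtype points in any panel, and PS overlaps IFPS for ENSRNOG00000001613 and ENSRNOG00000013780.

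The levels of these 4 genes in the other mutated lines differed from gene to gene. ENSRNOG00000061254 had 65.6, 48.8 and 62.8 CPM in IF MECs and 71.9, 58.0 and 10.8 CPM in PS MECs. All libraries of the mutated lines were above all wildtype libraries, and PS replicate 3 was far below the others. IFPS exceeded IF by a log2 fold change of 0.72 ± 0.45 (adjusted p = 0.501, edgeR) and PS by 1.05 ± 0.46 (adjusted p = 0.449, edgeR), so the lines were not shown to differ. ENSRNOG00000001613 averaged 46.3 ± 2.05 CPM in IF and 53.3 ± 0.974 CPM in PS MECs (SD, n = 3 each), and IFPS lay above all IF libraries and overlapped PS. IFPS exceeded IF by 0.18 ± 0.06 (adjusted p = 0.179, edgeR) and differed from PS by -0.02 ± 0.06 (adjusted p = 0.908, edgeR) on the log2 scale. ENSRNOG00000013780 averaged 156 ± 8.18 CPM in IF MECs, near the wildtype mean of 155 ± 8.43 CPM, and 113 ± 9.14 CPM in PS MECs, near the IFPS mean of 107 ± 5.37 CPM (SD, n = 3 each). IFPS was lower than IF, at a log2 fold change of -0.55 ± 0.07 (adjusted p = 0.01, edgeR), while the difference from PS was -0.08 ± 0.07 (adjusted p = 0.708, edgeR). ENSRNOG00000004639 averaged 30.3 ± 1.07 CPM in IF and 28.5 ± 1.54 CPM in PS MECs (SD, n = 3 each), both between IFPS and wildtype, and its differences of -0.28 ± 0.06 from IF (adjusted p = 0.0577) and -0.20 ± 0.06 from PS (adjusted p = 0.303) did not pass in edgeR.

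Direct tests between IFPS and the other mutated lines came from the fit of all 12 MEC libraries, so the wildtype libraries entered the filter, the scaling and the spread, and the IFPS libraries are those of the comparison above. Between IFPS and IF MECs 109 genes differed (0.742%), 75 higher (0.511%) and 34 lower (0.231%) in IFPS. Between IFPS and PS MECs 10 genes differed (0.0681%), 3 higher (0.0204%) and 7 lower (0.0477%). Of the 40 genes higher than wildtype, 2 were also higher than IF and 0 higher than PS by edgeR, and of the 15 lower genes 5 were also lower than IF and 1 lower than PS. In fits of only the groups compared these counts were 95 (62 of them among the 109) and 29 (8 of them among the 10). The IFPS and IF count was 41 without IFPS replicate 1, 6 without IFPS replicate 2 and 8 without IFPS replicate 3. It was 18, 10 and 27 without IF replicates 1, 2 and 3. The IFPS and PS count was 6 without IFPS replicate 1 and between 7 and 13 in the other 5 such fits.

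The mean log2 CPM of the 40 genes higher in IFPS was 3.68 to 3.75 in the wildtype libraries, 4.94 to 5.02 in IFPS, 4.73 to 4.85 in IF and 4.56 to 4.96 in PS. The mean of the 15 lower genes was 5.15 to 5.19 in wildtype, 4.35 to 4.46 in IFPS, 4.75 to 4.92 in IF and 4.61 to 4.67 in PS. On this scale IF and PS libraries sat near IFPS for the higher genes and between wildtype and IFPS for the lower genes. These values describe genes chosen on the IFPS and wildtype libraries, and no test was made on them. Of the 40 higher genes, IFPS libraries lay above all IF libraries for 13 and below them for 0, where 10.5% of all genes tested lay above and 10.5% below. Against PS they lay above for 5 of the 40 and below for 1, where 8.97% of all genes lay above and 9.6% below. Of the 15 lower genes, IFPS lay below all IF libraries for 11 and above them for 1, and below all PS libraries for 7 and above them for 1. The IFPS libraries that chose these genes enter each of these counts.

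Of the 55 genes, 8 differed by more than 4-fold, 7 of them higher in IFPS. In all 7, every IF and every PS library was also above every wildtype library, as for 4.6% of all genes tested and for 28% of the 1177 genes with all IFPS above all wildtype libraries. The 7 genes were chosen partly for low values in the same 3 wildtype libraries, so this is a description. For the gene with the largest fitted change the margin was slight, at 0.0701 CPM in the lowest PS library and 0.068 CPM in the highest wildtype library. Their mean levels were 0.0227 to 13.6 CPM in wildtype and 0.698 to 446 CPM in IFPS. The gene with the largest fitted change rested on 2 counts over the 3 wildtype libraries against 172 in IFPS, and its fitted fold change is no bound. The 1 lower gene past 4-fold had 0.578 to 0.965 CPM in wildtype MECs and 3 counts over the 3 IFPS libraries (0 to 0.0826 CPM). It had 0.467 to 0.958 CPM in IF and 0.193 to 0.491 CPM in PS MECs. In fibroblasts, adipocytes and pads of wildtype and IFPS it was at 0 or, over all 3 wildtype fibroblast libraries, at 1 count.

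Among the 7 higher genes, 3 varied alike over the series. Over all 80 libraries, 2 of 14127 other genes with a mean of at least 1 CPM had a Pearson correlation of at least 0.8 with ENSRNOG00000061254, at 0.923 and 0.911 (log2(CPM + 1), libraries of different tissues and depths, given as a description). Both were among the 7, and their correlation with each other was 0.988. The first averaged 13.6 CPM in wildtype, 446 CPM in IFPS, 243 CPM in IF and 221 CPM in PS MECs. The second averaged 3.90 CPM in wildtype, 84.9 CPM in IFPS, 69.6 CPM in IF and 82.6 CPM in PS MECs. PS replicate 3 was the lowest of the 9 mutated MEC libraries for 5 of the 7 higher genes, these 3 among them. The same share over all genes was not computed.

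A further 20 genes differed by more than 4-fold without passing the threshold, 13 higher and 7 lower in IFPS. For 14 of them the IFPS and wildtype libraries did not overlap, and 10 had a mean under 1 CPM. The gene with the largest fitted log2 fold change of all, 11.28 ± 3.38 (SE, adjusted p = 0.231, edgeR), had 0 to 0.102 CPM in wildtype, 15.4 to 329 CPM in IFPS, 1.83 to 181 CPM in IF and 0.0963 to 33.6 CPM in PS MECs. Libraries of one mutated line thus differed from each other by large factors in this gene.

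The genes that changed in IFPS MECs were detected in other cells of the gland about as often as all genes tested. Of the 40 higher genes, 34 had at least 1 CPM in all 3 wildtype fibroblast libraries (85%) and 34 in all 3 adipocyte libraries (85%), beside 80.6% and 78.8% of all genes tested. Of the 15 lower genes, 14 were detected in this way in fibroblasts and 13 in adipocytes. In wildtype pads 35 of the 40 higher (87.5%) and 12 of the 15 lower genes (80%) were detected, beside 85.5% of all genes. Of the 55 genes 0 were in the MEC-enriched or the fibroblast-enriched set, and 1 higher gene was in the adipocyte-enriched set, numbers too small to set against the 1.7%, 0.477% and 1.95% of all genes tested that these sets hold. Among the 250 MEC-enriched genes 12 had an unadjusted p-value under 0.05 (4.8%, 8 higher and 4 lower, against 10.8% of all genes), DESeq2 called 3, and the median log2 fold change was 0.02. Among the 70 fibroblast-enriched genes tested, 10 had an unadjusted p-value under 0.05 (14.3%, 2 higher and 8 lower) and DESeq2 called 1. Of these 70 genes 22 had a log2 fold change above 0, beside 48.5% of all genes, and the median was -0.21, in the same direction as the lower share of fibroblast-enriched counts in IFPS MECs. The part of that share in the 55 calls was not tested. Among the 287 adipocyte-enriched genes tested, 34 had an unadjusted p-value under 0.05 (11.8%, 19 higher and 15 lower), DESeq2 called 6, 166 were above 0 and the median was 0.05.

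The same genes were followed in libraries that had no part in choosing them. The title numbers of the MEC libraries recur in these other tissues. Whether they mark the same rats is not stated, so the tissues may not be independent of the MECs. In fibroblasts 9 of 13879 genes differed between IFPS and wildtype (0.0648%, 9 lower and 0 higher, whereas DESeq2 gave 473 higher and 373 lower), in adipocytes 0 of 14304 (927 at an unadjusted p under 0.05, 6.48%, and 214 by DESeq2) and in pads 0 of 16384 (1297 unadjusted, 7.92%, and 21 by DESeq2), by edgeR. The fibroblast count was 1558 without wildtype fibroblast replicate 3 (843 higher and 715 lower), 238 without IFPS fibroblast replicate 2 (154 higher and 84 lower), 31 with no filter (10 higher and 21 lower), and 3 without IFPS fibroblast replicate 1 or 3. The adipocyte count was 23 without wildtype adipocyte replicate 1. Of the 40 genes higher in IFPS MECs, 38 were tested in fibroblasts, where 16 had a log2 fold change above 0 (42.1%, against 49.8% of all genes) with a median of -0.04 and 0 passed by edgeR (4 higher and 5 lower at an unadjusted p under 0.05, beside 10.7% of all genes in each direction). In adipocytes 12 of 38 were above 0, with a median of -0.05, and in pads 20 of 39, with a median of 0.01. Over all genes 50.8% were above 0 in adipocytes and 51.7% in pads. Of the 15 genes lower in IFPS MECs, 4 of 14 tested were above 0 in fibroblasts, 2 of 14 in adipocytes and 6 of 14 in pads, with medians of -0.16, -0.12 and -0.06.

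**Figure D4:**
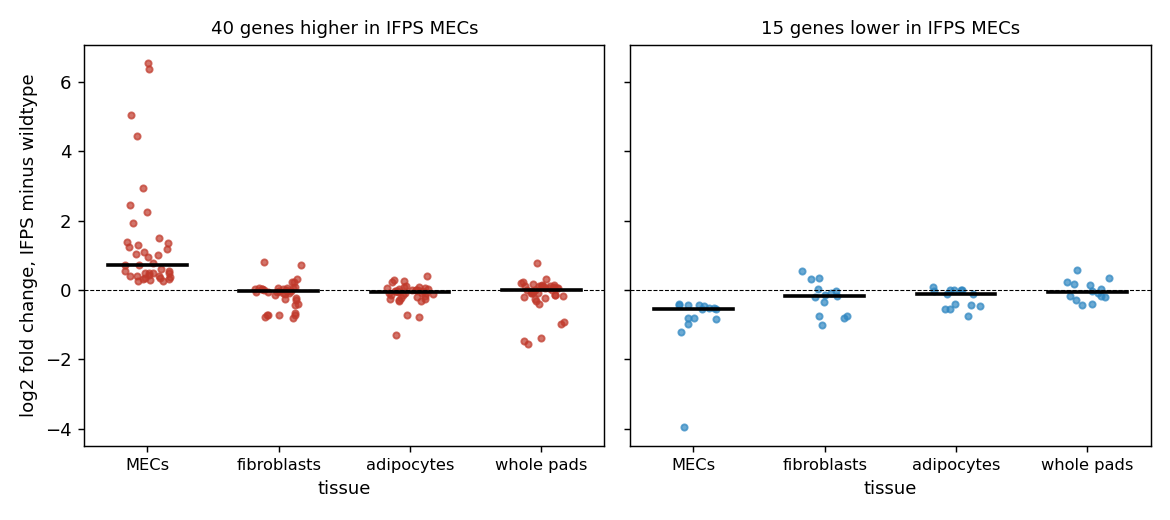
Each point is 1 of the genes past the threshold in IFPS against wildtype MECs (40 higher, left; 15 lower, right), with its log2 fold change (IFPS minus wildtype) on the y axis in MECs and in 3 other tissues, and black lines are medians. The MEC column shows the values that chose the genes, while the medians in fibroblasts, adipocytes and pads lie between -0.16 and 0.01.

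ENSRNOG00000013780 was 1 of the 55 genes and 1 of the 9 genes past the threshold in fibroblasts, the only one shared by both lists. It had 139 to 155 CPM in wildtype and 88.1 to 91.9 CPM in IFPS fibroblasts, a log2 fold change of -0.75 ± 0.06 (SE, adjusted p = 0.000262, edgeR). In adipocytes it had 143.9 to 153 CPM in wildtype and 97.6 to 99.5 CPM in IFPS (-0.56 ± 0.09, adjusted p = 0.0972, edgeR). In pads the 6 wildtype samples ran from 84.1 to 120.9 CPM with a median of 91.9 CPM, and the 6 IFPS samples from 69.3 to 78.2 CPM with a median of 72.0 CPM (-0.41 ± 0.09, adjusted p = 0.429, edgeR). IFPS lay below wildtype without overlap in all 4 tissues, and the test passed in MECs and fibroblasts. In MECs 7.58% of all genes tested lay below in this way, and this share was not computed for the other tissues. PS had 98.0 to 101.9 CPM in fibroblasts, 97.45 to 98.7 CPM in adipocytes and 63.7 to 90.3 CPM in pads. IF had 148.9 to 157.4 CPM in fibroblasts, 111.4 to 138.2 CPM in adipocytes and 93.45 to 101.9 CPM in pads. The low level was thus not particular to IFPS. The tissues share title numbers and may not be independent.

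The other 3 genes passed the test in MECs and did not pass it in the other tissues. ENSRNOG00000061254 was already high in wildtype fibroblasts, at 53.4, 39.6 and 26.7 CPM, and had 30.2, 14.5 and 31.5 CPM in IFPS fibroblasts, but only 0.502, 0.894 and 0.646 CPM in PS fibroblasts. In adipocytes it had 1.33 to 7.57 CPM in wildtype and 1.33 to 12.4 CPM in IFPS, overlapping, and 1.49, 43.6 and 44.7 CPM in PS. In pads with title numbers up to 12 it had 2.11, 7.82 and 4.79 CPM in wildtype and 9.23, 7.06 and 2.08 CPM in IFPS. In pads with title numbers from 13 it had 65.6, 98.5 and 65.8 CPM in wildtype and 61.3, 0.373 and 1.24 CPM in IFPS. The IFPS pads overlapped wildtype in the first set and lay below it in the second. Across all 21 pads the high levels lay in a single run of title numbers that held pads of every line. The limits of this run were set after the levels were seen, so the gap between the ranges is a description. The 8 pads numbered 9 to 16 (3 wildtype, 1 IFPS, 1 IF and 3 PS) had 61.3 to 98.5 CPM, the 8 pads numbered 1 to 8 had 1.19 to 9.23 CPM and the 5 pads numbered 17 to 21 had 0.373 to 5.07 CPM. This gene thus differed by large factors between libraries of 1 line and tissue, and the part of such variation in its MEC difference was not tested. In the 9 IFPS tumors it ran from 1.53 to 40.2 CPM with a median of 11.1 CPM. ENSRNOG00000001613 had log2 fold changes of 0.02 ± 0.08 in fibroblasts, -0.12 ± 0.09 in adipocytes and 0.14 ± 0.11 in pads, and ENSRNOG00000004639 had 0.02 ± 0.07, -0.12 ± 0.08 and 0.17 ± 0.07 in the same order (SE), none of them past the threshold.

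**Figure D5:**
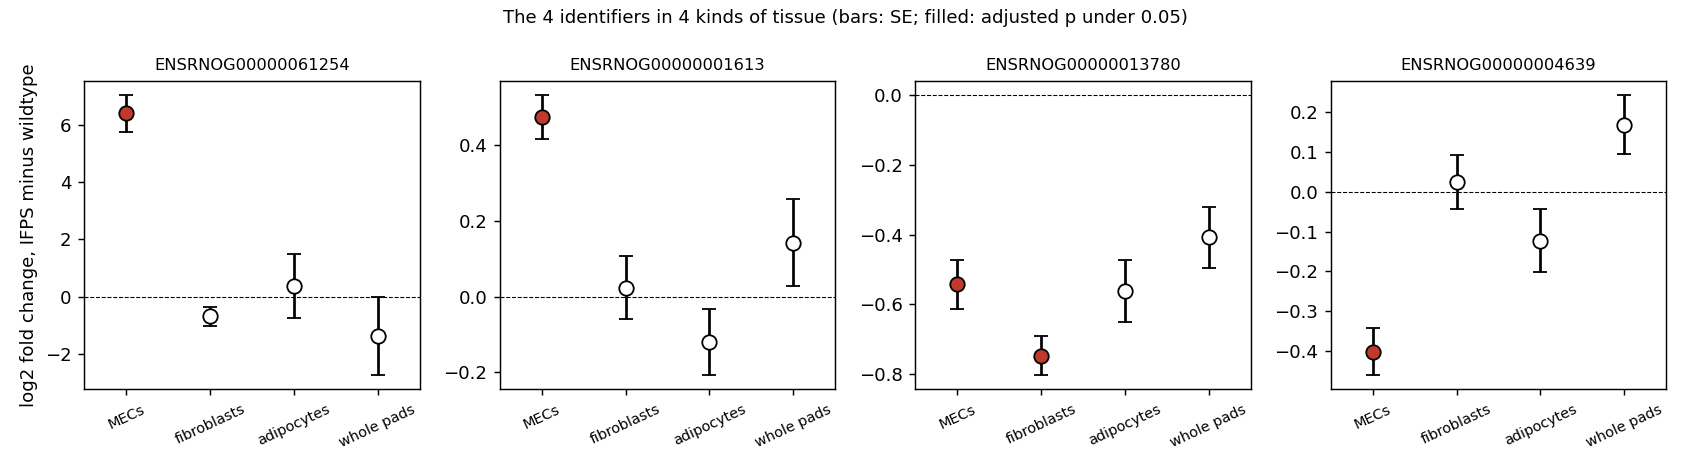
Points are log2 fold changes (IFPS minus wildtype) of the 4 genes in MECs, fibroblasts, adipocytes and whole pads, bars are SE, and filled points passed an adjusted p-value of 0.05; the y axes differ between panels. ENSRNOG00000013780 is below 0 in all 4 tissues, from -0.75 to -0.41, whereas the other genes passed in MECs alone.

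Whether the IFPS difference depended on the cell type was tested in a fit of MECs and fibroblasts, the pair of cell types grown in culture. It did so for 36 of 15224 genes (0.236%). The signed log2 fold change was higher in MECs for 28 of them (0.184%) and lower for 8 (0.0525%). The 4 genes were chosen on the MEC libraries that enter this test. With the number in the sample title as a replicate block, which pairs MEC and fibroblast libraries, 325 genes passed, the 36 among them. Of these 325 genes, 32.9% had the higher signed log2 fold change in MECs. The count without the block was 1241 without wildtype fibroblast replicate 3 and 290 without IFPS fibroblast replicate 2. Without MEC libraries it was 22, 26 and 15 for wildtype replicates 1, 2 and 3 and 25, 19 and 18 for IFPS replicates 1, 2 and 3. It was 16 and 22 without wildtype fibroblast replicates 1 and 2, and 16 and 18 without IFPS fibroblast replicates 1 and 3. ENSRNOG00000061254 differed between the cell types by 7.04 ± 0.74 on the log2 scale (adjusted p = 6.33e-05, edgeR) and ENSRNOG00000004639 by -0.44 ± 0.09 (adjusted p = 0.0367, edgeR). ENSRNOG00000001613 passed with the block alone (0.43 ± 0.09, adjusted p = 0.0392, against 0.44 ± 0.10 and 0.0768 without it, edgeR). ENSRNOG00000013780 differed by 0.19 ± 0.09 (adjusted p = 0.286, edgeR), so a dependence on the cell type was not shown for it.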

How the data were processed

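Per the labels' protocols, libraries were made with an mRNA kit and read as paired ends. Per the submitters' processing notes, Trim Galore and STAR 2.5.2b were used with the genome build Rnor_6.0. The counting tool and its strand setting are not given in the sources used here, so genes that share reads with a copy, an overlapping or an antisense gene are uncertain. The deposited values are raw counts per gene, whole numbers in 80 columns, each matched to its sample by the title. MECs, their groups and the rule for named genes (2 higher and 2 lower identifiers by smallest p-value where no symbol can be had) were set from the labels, but members and lists were chosen with earlier results of these data known.

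The test was the quasi-likelihood F-test of edgeR 4.0.16 (R 4.3.3), with TMM scaling, filterByExpr and adjustment by the method of Benjamini and Hochberg over all genes tested. One fit held the 12 MEC libraries of 4 lines, which shared the estimate of spread. Fibroblasts and adipocytes were fitted in the same way, and pads with the set of title numbers (1 to 12, 13 to 21) as a covariate. CPM used TMM factors, log2 CPM a prior count of 2, and each SE is the log2 fold change divided by the root of its F. CPM of fibroblasts, adipocytes, pads and tumors were scaled over all 80 libraries together. Alternatives were RLE factors, no filter, DESeq2 1.42.0, fits of fewer groups, thinned counts, a replicate block and leaving out each library. The fits without IF or without PS MECs were added after the data were seen.

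On simulated counts for 14688 genes in the fit of MECs, 93% of genes changed 2-fold and 99% of those changed 4-fold were recovered, and 3.52% of calls were unchanged genes. For the difference between cell types (15224 genes) these values were 81%, 96% and 7.81%. The changed genes left out those with the lowest levels, and the libraries were simulated as independent of each other. These values therefore do not give the power or the error rate in the real data. No 2 MEC libraries of the IFPS or the wildtype group agreed within sampling noise (chi-square per degree of freedom of at least 8.7). Title numbers run from 1 to 12 in MECs and in fibroblasts. Over 11619 genes, all 12 pairs of the same number deviated together from their group means (r of 0.152 to 0.336), so the numbers were taken to pair these libraries. Other pairs had r of -0.256 to 0.0409. Deviations from a group mean cancel out within the group, so positive values for same-number pairs push the other values down. The other pairs are therefore no independent reference.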

Additional observations from a re-analysis of the deposited data

Results flagged for a closer look

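ENSRNOG00000061254 stood out in 1 IFPS pad: replicate 4 had 61.25 CPM and the next of the 6 IFPS pads had 9.23 CPM. Across the 4 genes, 24 groups of 5 to 9 pads or tumors were examined for such a sample and 1 was found, and chance flags about 1 group in 20. This pad has title number 16, and all 8 pads numbered 9 to 16, of every line, had 61.3 to 98.5 CPM, while the other pads had at most 9.23 CPM. This range of title numbers was set after the levels were seen. For 5 of the 7 genes more than 4-fold higher in IFPS MECs, this same pad was the highest of the IFPS pads. These 5 include ENSRNOG00000061254 itself and the 2 genes that varied alike with it, so they are not separate observations. The same share over all genes was not computed.

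The effect of IFPS differed between MECs and fibroblasts in 36 genes in the fit without the replicate block. For 77.8% of them the signed log2 fold change was higher in MECs, which does not mean a bigger change there. With the block 325 genes passed, and the signed log2 fold change was higher in MECs for 32.9% of them. Leaving out a library from the fit without the block gave 15 to 1241 genes. In the fit without the block the effect differed for ENSRNOG00000061254, by 7.04 on the log2 scale (6.39 in MECs and -0.67 in fibroblasts), and for ENSRNOG00000004639, by -0.44 (-0.40 in MECs and 0.02 in fibroblasts). Both rest on a test of the difference itself, but the genes were chosen on MEC libraries that enter this test.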

How the results depend on the processing

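No called gene of any comparison changed direction under an alternative, but the alternatives reuse the libraries that chose the genes, so a change was unlikely. For IFPS against wildtype MECs (55 genes) RLE factors gave 53 and no filter 47, whereas DESeq2 gave 203, the fit of only these groups 10, thinned counts 32, the fit without IF MECs 0 and without PS MECs 10. Leaving out a library gave 1 to 25. For IFPS against IF MECs (109) DESeq2 gave 470 and leaving out a library 6 to 41. For IFPS against PS MECs (10) no filter gave 16, DESeq2 127, the fit of only these groups 29, and leaving out a library 6 to 13. For the difference between MECs and fibroblasts (36) DESeq2 gave 506, the replicate block 325, and leaving out a library 15 to 1241. For fibroblasts (9) no filter gave 31, DESeq2 846, the fit of only these groups 0 (2116 unadjusted), and leaving out a library 3 to 1558. For adipocytes (0) no filter gave 8, DESeq2 214, and leaving out a library 0 to 23. For pads (0) DESeq2 gave 21 and leaving out a library 0 to 0. The causes were not tested. Of 13 alternatives, the call was kept in 12 for ENSRNOG00000061254, 7 each for ENSRNOG00000001613 and ENSRNOG00000013780, and 4 for ENSRNOG00000004639. Within MECs no paired fit can be made, since IFPS and wildtype share no title number. Levels near 1 CPM rest on about 20 to 30 counts per library and limit the fold changes there.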
